A study of Mus musculus with 18 samples.

Results

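The circRNA output of each gene in wild-type (WT) NIH/3T3 cells was set against the mRNA level of the same gene. A host gene was a gene of the mRNA count tables with annotated exon edges at both ends of a circRNA, and its circle reads were the back-splice junction reads of all its circRNAs added up in each of the 2 WT whole-cell circRNA-seq libraries. This rule gave 3837 WT hosts of 55401 annotated genes. Of these, 3603 were listed in both libraries. The mRNA level was the FPKM (counted fragments scaled to the kilobases of exon of the gene and to the total of the library) in the 3 WT mRNA-seq libraries.

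The study compared WT cells with an XPO4 knockout (KO) line made by CRISPR-Cas9 in NIH/3T3, a mouse embryonic fibroblast line, to ask which circRNAs need Exportin 4 to leave the nucleus. Whole-cell, cytoplasmic and nuclear RNA was sequenced after RNase R digestion of linear RNA (2 libraries per genotype and fraction), and mRNA-seq was done in 3 libraries per genotype. No treatment or time point was given for either genotype, and the KO is 1 line with both gene copies edited alike, so that a property of that line and the loss of XPO4 cannot be told apart. Nothing in the labels says that same-group libraries came from separate cultures, so the spread between them may be technical.

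A circRNA forms when the spliceosome joins the end of an exon to the start of the same or an upstream exon, which is called back-splicing. The circle has no free ends, resists exonucleases and is usually long-lived, and it competes with linear splicing for the same pre-mRNA. Its amount depends on transcription, on the choice between linear and back-splicing and on decay, and the mRNA of the same gene has a decay rate of its own.

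The junctions of 9 hosts are shown because they span the whole range found here, from many circle reads for little mRNA (Mipol1, Pakap, Adgrl3, Rims2, Lncpint), through the hosts with most reads (Tulp4, Rasa2) and the widely studied circRNA of Hipk3, to few reads for abundant mRNA (Rpl8). For the most abundant circRNA of each host, the last 15 bases of the donor exon are in lower case and the first 15 bases of the acceptor exon are in capitals, 5′ to 3′ on the gene's strand, read from GRCm38.
Mipol1 (exons 6 to 8, chr12:57325524-57332459, plus strand): gcggctttgtctcagCTTTGGTTGAAGAAG
Pakap (exon 7, chr4:57709451-57710143, plus strand): cagacccggccccagCTATATACGCCATGG
Adgrl3 (exon 9, chr5:81511984-81512784, plus strand): tggatagtagatcagTTTTTCTTTGTCCTG
Rims2 (exons 20 to 22, chr15:39566943-39616510, plus strand): aactcagccaaaccgGTGCTATGGATATAG
Lncpint (chr6:31139729-31181149, minus strand): taagccaccaaagagGCATCTCGTTGATTC
Tulp4 (chr17:6137211-6139156, plus strand): ggccacaacagtgagAGTTGTAAGAGTCCA
Rasa2 (exons 2 to 5, chr9:96591950-96611499, minus strand): gcagcttgttgtacaATGAAGCAAAAAATT
Hipk3 (exon 2, chr2:104470749-104471847, minus strand): atctcgctactacagGTATGGCCTCACAAG
Rpl8 (exons 2 to 5, chr15:76904303-76905971, plus strand): ggtgtggccatgaatACTCGCCGCCATGGG
All 10438 circRNAs with 1 host had the bases AG before their first and GT after their last base in the genome, the dinucleotides of ordinary introns. Both ends of 10290 of them were exon edges of a single annotated transcript. Hosts were assigned by annotated exon edges, so that these dinucleotides are no independent check of the junctions.

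The WT whole-cell libraries held 57780 and 55109 junction reads over 9902 and 9907 circRNAs, and the WT mRNA-seq libraries held 19529104 to 22057323 counted reads. Reads of 74 circRNAs that fitted several genes and of 22 that fitted none were left out. The circRNA lists look filtered, since no circRNA listed in a whole-cell library had under 4 reads summed over the 4 whole-cell libraries, and spans ran from 150 to 99947 bp. A gene without a circRNA is therefore a gene without a listed circRNA, and its true share of reads has no limit that could be computed. The first line of each mRNA count table names an alignment of the other genotype; the sample titles were followed, and the values with the KO mRNA libraries in place of the WT ones are given below. All 8 fibroblast markers were at FPKM 1 or more (summed FPKM 2748 to 2894), whereas none of 8 blood markers was (summed FPKM 0.509 to 0.848, with Hbb-bt, Hbb-bs, Hba-a1, Cd3e and Itgam at 0), although the extraction protocol in the labels mentions peripheral blood. None of 4 epithelial markers reached FPKM 1. Of 4 neuronal markers Snap25 did, and Tubb3, Syt1 and Rbfox3 were at 0.

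With genes of all lengths pooled, the amount of circle reads of a host followed the amount of its mRNA hardly at all. Reads rose and FPKM fell with gene span, as given below, and rho was not computed among genes of similar length. Across the 3837 hosts, Spearman's rho between mean circle RPM (circle reads scaled to the junction reads of the library, as reads per 1000000) and mean FPKM was 0.0405, and it ran from 0.0292 to 0.0460 over the 6 pairs of single libraries. On log2 values the Pearson correlation was 0.0659 over the 3823 hosts with FPKM above 0. With the KO mRNA libraries in place of the WT ones rho was 0.0315. Over hosts of FPKM 1 or more the sign turned, with rho of -0.0196. These values describe genes within the same libraries, and genes are not independent replicates.

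Both measures were repeatable by themselves. Host circle reads had a rho of 0.904 between the 2 WT whole-cell libraries, and FPKM had 0.996 to 0.998 between the WT mRNA libraries. The WT whole-cell libraries differed by less than the sampling noise over all hosts (chi-square of 0.858 per host), but single abundant hosts differed by more, such as Tulp4 with 565 and 379 reads, and both libraries were kept as replicates. Against the WT cytoplasmic libraries, host circle reads had a rho of 0.711.

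**Figure D1:**
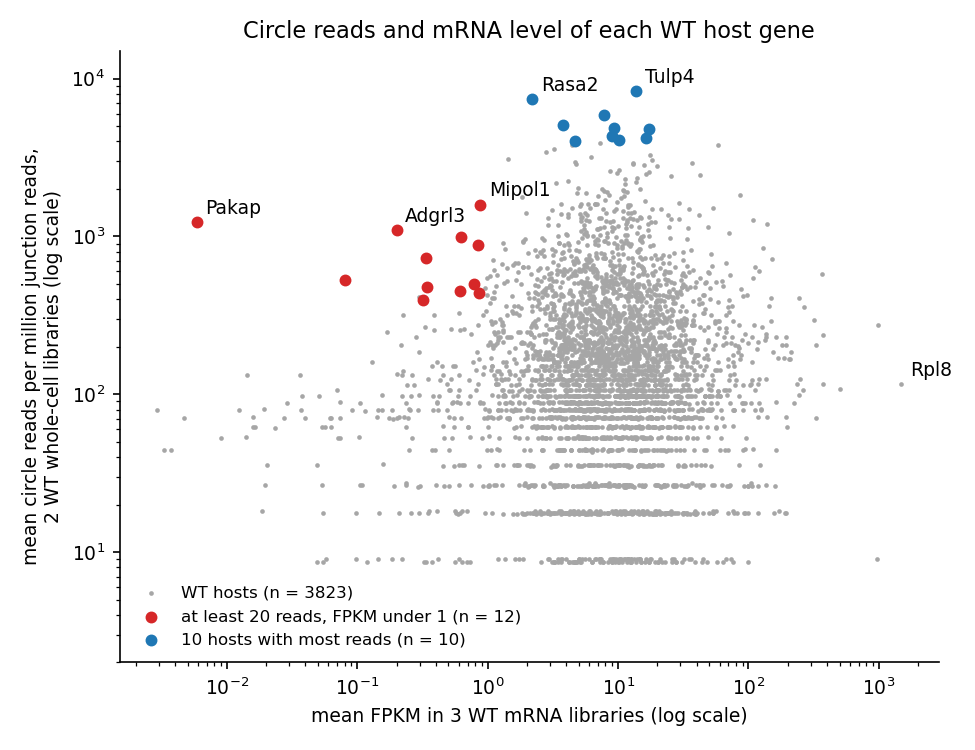
Each point is 1 of 3823 WT host genes with FPKM above 0, with mean FPKM of 3 WT mRNA libraries on the x axis and mean circle RPM of 2 WT whole-cell libraries on the y axis (both log scales). With genes of all lengths pooled, the cloud has no slope. Red hosts with at least 20 reads in both libraries and FPKM under 1 (n = 12) lie at the left. The 10 hosts with most reads (blue) lie between FPKM 2.20 and 17.2, and Rpl8 lies at the far right with 6 and 7 reads.

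Output per mRNA spanned a wide range. The median host had 7 circle reads (interquartile range 4 to 15.5), 2 circRNAs and an FPKM of 8.44. Circle RPM divided by FPKM had a median of 15.8 over the 3798 hosts with at least 3 mRNA reads in every library, and its 5th and 95th percentiles were 0.931 and 238, a 256-fold range. Reads were concentrated in few genes: the 383 hosts with most reads held 46.8% of them. A single circRNA was listed for 1709 hosts (44.5%). Birc6, an inhibitor of apoptosis, had the most, with 24. Host circle reads rose with the number of circRNAs (rho 0.811), which follows in part from their definition as a sum over these circRNAs.

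Few genes below FPKM 1 were hosts, and above it the share of hosts differed more between bins of gene length than between ranges of FPKM. Host circle reads had a rho of 0.399 with the genomic span of the gene and of 0.264 with its number of merged exons, and FPKM had -0.355 with the span over the same hosts. Of 12417 genes at FPKM 1 or more, 3612 (29.1%) hosted a circRNA. Of 6333 genes at FPKM 0.1 to 1, 167 (2.64%) did. The share was 26.7% at FPKM 1 to 10, 33.6% at 10 to 100 and 18.1% at 100 and over, and the hosts of these ranges had a median of 7.5, 7.0 and 7.0 reads. With all lengths pooled, reads per host hardly differed between these ranges, and the share of hosts was lowest in that of the most abundant mRNAs.

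Among the 9549 expressed genes of at least 4 merged exons, 37.6% were hosts. The share was 6.46% of genes that span under 10 kb, 20.6% at 10 to 30 kb, 55.8% at 30 to 100 kb and 80.0% at 100 kb and over. The order of the shares held within each range of FPKM. At FPKM 1 to 10, 4.34% of the shortest and 77.9% of the longest genes were hosts, and at FPKM 10 to 100 the shares were 8.10% and 85.5%. The median reads of the hosts were 3.5, 4.5, 7.5 and 14 from the shortest to the longest bin, but at FPKM 1 to 10 the lower bins were turned, with 4.5 under 10 kb and 4.0 at 10 to 30 kb.

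Among genes of similar length, the share of hosts was higher at higher FPKM, unlike in the pooled ranges. At 10 to 30 kb it was 14.8%, 26.0% and 32.4% over the 3 rising FPKM ranges, and the hosts had a median of 4.0, 4.5 and 6.75 reads. At 30 to 100 kb it was 50.5%, 63.0% and 64.9%, with medians of 6.5, 8.75 and 12.0 reads. The top range held 111 and 37 genes in these bins. Under 10 kb the share was 4.34%, 8.10% and 7.69%, and the median reads did not rise (4.5, 3.5 and 2.5). Span, exon number and the number of possible junctions cannot be told apart here.

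**Figure D2:**
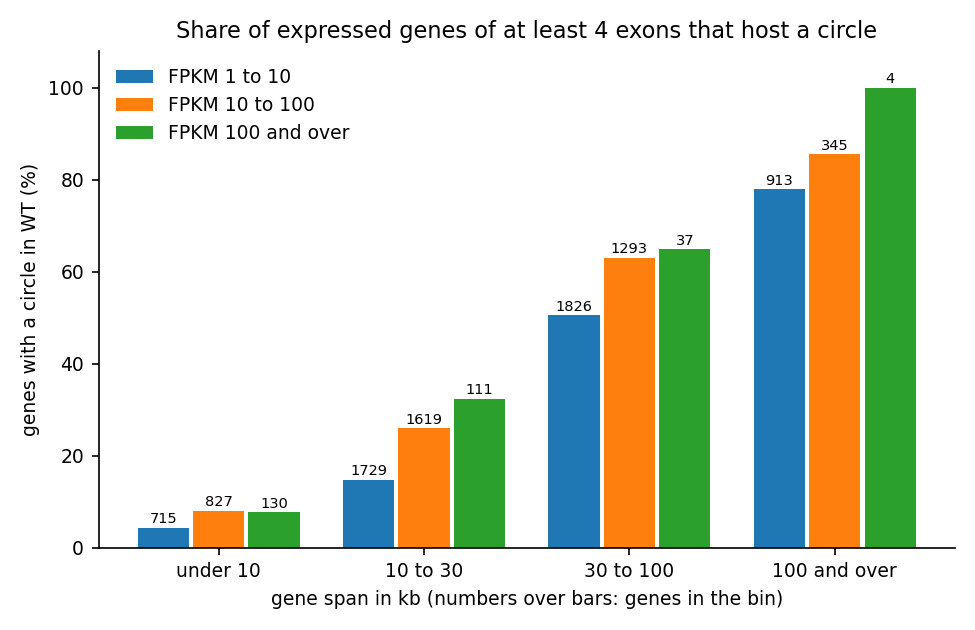
Bars give the percentage of expressed genes of at least 4 merged exons that hosted a circRNA in WT whole-cell RNA, by genomic span in kb (x axis) and by mean WT FPKM (colours), with the number of genes over each bar. In every FPKM range the share climbs with span, from at most 8.10% under 10 kb to at least 77.9% at 100 kb and more. The last green bar holds only 4 genes.

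The 10 hosts with most circle reads were expressed at ordinary levels. Tulp4, a tubby-like protein, had 565 and 379 circle reads at FPKM 14.9, 13.3 and 13.3. Rasa2, a GTPase-activating protein that turns off Ras, had 457 and 383 at FPKM 2.34, 2.12 and 2.14, which gave 3377 circle RPM per FPKM, 213 times the median host. The circle reads of Tulp4 and Rasa2 overlapped between libraries, whereas their mRNA levels lay apart in every library. Glis3, a zinc-finger transcription factor, had 334 and 331 reads. Nsd2, a histone H3 lysine 36 methyltransferase, had 297 and 255, and Dtnb (dystrobrevin beta) had 291 and 282. The others were Mettl9, a histidine methyltransferase (315 and 228), Cacna1c, the pore subunit of an L-type calcium channel (240 and 245), Rabep1, an effector of the endosomal GTPase Rab5 (235 and 239), Ube2k, a ubiquitin-conjugating enzyme (250 and 214), and Bnc2, a zinc-finger protein of fibroblasts (243 and 212). Neighbours in this order mostly overlapped between libraries.

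In cytoplasmic RNA of the same genotype these 10 hosts kept high reads before scaling, with Bnc2 as the exception at 41 and 66. Cacna1c had 597 and 599 there, Rasa2 506 and 500 and Dtnb 492 and 508. The cytoplasmic libraries are deeper, with 77818 and 81941 junction reads, so that fractions are compared as the ratio of circle RPM in cytoplasm to whole cell. Cytoplasm was lower for Bnc2 (0.165), Glis3 (0.553), Tulp4 (0.628), Ube2k (0.657), Nsd2 (0.765) and Rasa2 (0.848). It was higher for Mettl9 (1.09), Rabep1 (1.23), Dtnb (1.23) and Cacna1c (1.74).

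In many of these genes 1 circRNA dominated. It held 99.6% of the reads of Hipk3 (161 and 91 reads at a mean FPKM of 13.8), a kinase gene whose large exon 2 of 1099 bases makes the circle. It held 90.9% in Ube2k, 88.6% in Bnc2 and 86.8% in Cacna1c, but 30.8% in Rabep1, which had 22 circRNAs. Over the 383 hosts with most reads, the leading circRNA held a median of 36.9% of the reads of its host, which had a median of 7 circRNAs. It began at exon 2 in 40.6% of them, against 34.7% of all hosts. Its flanking introns had median lengths of 14698 bp upstream and 12284 bp downstream, against 6242 and 4443 bp over all hosts. A reverse-complementary match of at least 15 bases between the 500 bases on either side was found in 3.35% of these hosts and in 2.78% of all hosts tested.

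Hosts with many circle reads for little mRNA were defined by at least 20 circle reads in both WT whole-cell libraries and an FPKM under 1 in all 3 WT mRNA libraries. Of 640 hosts with that many reads, 12 met this rule. Adgrl3, Rims2 and Kcnh5 among them are best known from neurons. Mipol1, a coiled-coil protein gene, had 99 and 81 circle reads at FPKM 0.920, 0.850 and 0.864. Adgrl3, a latrophilin adhesion receptor, had 60 and 63 reads at FPKM 0.218, 0.188 and 0.194. Rims2, a scaffold of the synaptic active zone, had 27 and 33 reads at FPKM 0.0774, 0.104 and 0.0611, from 14 to 21 mRNA reads in a library. Circle RPM per FPKM was 1813 for Mipol1, 5456 for Adgrl3 and 6607 for Rims2, which is 115, 345 and 417 times the median host. With the KO mRNA libraries in place of the WT ones these ratios were 1355, 1449 and 664, so that Rims2 dropped from the highest to the lowest of these 3.

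Lncpint, a long non-coding RNA gene, had 43 and 40 circle reads at FPKM 0.273, 0.368 and 0.363, and was the only one of the 12 not annotated as protein-coding. Dennd1b, an exchange factor for Rab GTPases, had 60 and 40 reads. Cdc14a, a dual-specificity phosphatase, had 30 and 20. Strbp, an RNA-binding protein with double-stranded RNA-binding domains, had 29 and 27. Asxl3, a chromatin regulator of the Polycomb deubiquitinase, had 28 and 26, Sema5a, a semaphorin, had 26 and 25, and Kcnh5, a voltage-gated potassium channel, had 24 and 21. FPKM of these 6 ran from 0.235 to 0.924 over the libraries. The reads of each came from 4 to 8 circRNAs, so that no single junction made the group.

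For 2 of the 12 the mRNA level itself is uncertain. Pakap had 83 and 56 circle reads, 93.5% of them from exon 7, but 3, 0 and 0 mRNA reads. It shares 98.2% of its exon bases with other genes, 81.5% with Akap2 and 16.7% with Palm2, and the counting dropped reads that fell on more than 1 gene. Akap2 itself was at a mean FPKM of 0.00762 and Palm2 at 0.497. Taking 3 mRNA reads per library as the floor, Pakap had at least 70627 circle RPM per FPKM, a bound on the counted and not on the true mRNA. Gm21992 had 66 and 47 circle reads, all from 1 circRNA, at FPKM 0.505, 0.744 and 0.627, and shares 69.8% of its exon bases, 51.7% with Rbm4 (FPKM 1.46) and 12.6% with Rbm14 (FPKM 20.04). The other 10 shared under 10%, and over all hosts 8.63% shared 10% or more.

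A further 213 hosts had a mean FPKM under 1 without meeting the rule, and 14 of them had no mRNA read in any WT library. The highest of the 14, named after their values were seen, were Uty, a Y-linked relative of a histone demethylase, with 10 and 12 circle reads, and Ppargc1a, a coactivator of mitochondrial genes, with 7 and 4. All others had at most 5 reads in a library. With no mRNA read no ratio was computed. That no mRNA read was counted for the 14 rests on the sample titles of the mRNA libraries, and their KO mRNA is not given.

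Near the limits of the rule the groups run into each other. Cdc14a was the last one inside, with 20 reads in 1 library and FPKM 0.924 in another. Just outside, with at least 20 reads and a highest FPKM between 1 and 1.2, were Cpeb3 (26 and 22 reads), Eya1 (35 and 45), Kif6 (27 and 36), Lmbr1 (29 and 32) and Tbc1d32 (22 and 21). The mRNA-seq kit was a whole-transcriptome kit and no poly(A) selection was stated, so circRNA exons may have added to the FPKM of all these genes, which was not tested.

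**Figure D3:**
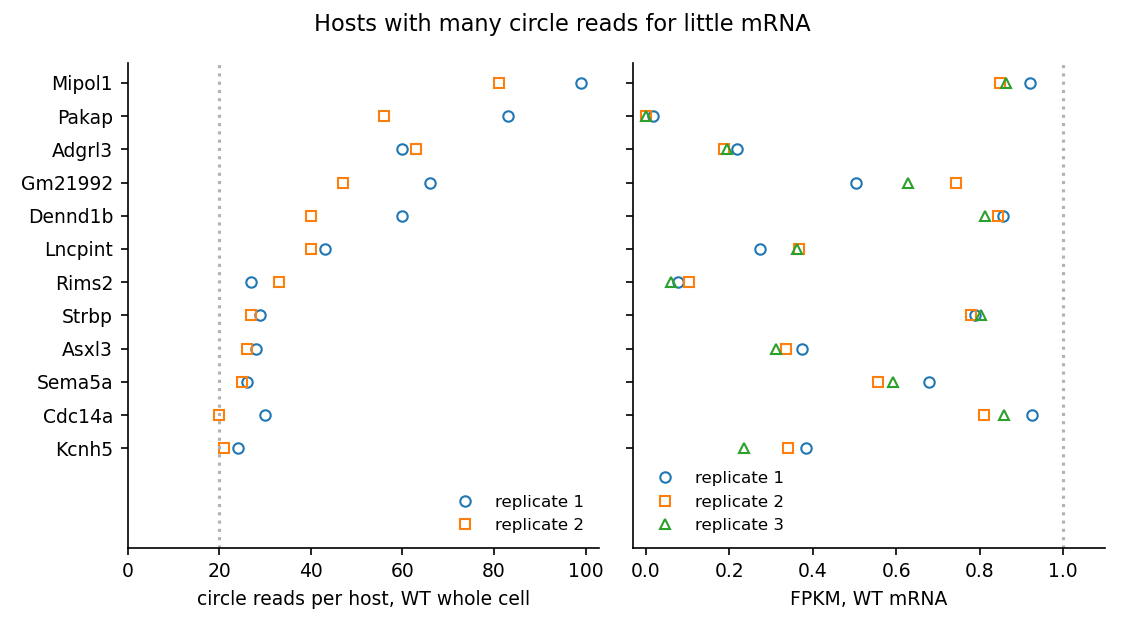
Left: circle reads of the 12 hosts in the 2 WT whole-cell libraries; right: FPKM in the 3 WT mRNA libraries. Symbols are replicates and dotted lines mark the limits of 20 reads and FPKM 1. Mipol1 has the most circle reads, and Pakap, Rims2 and Adgrl3 lie lowest in FPKM.

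These 12 genes were long. Their median span was 244 kb, against 60.2 kb over all hosts, and their median first intron was 24909 bp, against 7670 bp. The 383 hosts with most reads had medians of 118 kb and 18658 bp. Over all hosts, reads rose with span (rho 0.399) and FPKM fell with it (rho -0.355). A rule of many reads and low FPKM thus favours long genes, and nothing is read from their length. The leading circRNAs had median flanking introns of 20117 and 22280 bp, longer than those of the 383 hosts with most reads. They held a median of 3 exons, as over all hosts, and none of the 10 tested had a reverse-complementary match of 15 bases in its flanks. In the WT cytoplasmic libraries the 12 were listed too. Mipol1 had 119 and 81 reads there, Asxl3 37 and 53, and Adgrl3 8 and 12 against its 60 and 63 in whole cells.

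At the other end, 691 genes had an FPKM of 50 or more in all 3 WT libraries and at least 4 merged exons, and 489 of them (70.8%) had no listed circRNA in WT whole cells. The gene at the top was Eef1a1, the elongation factor that brings aminoacyl-tRNA to the ribosome, with FPKM 4296, 4572 and 4460 and no junction read. Lgals1, a galectin, followed with 2630, 2817 and 2723. Rplp0, of the ribosomal stalk, had 2185, 2343 and 2277. Among the 15 highest were further ribosomal proteins (Rps3a1, Rpl36, Rpl32, Rps15, Rps4x, Rpl19), the elongation factors Eef2 and Eef1g, the chaperone Hsp90ab1, prothymosin alpha (Ptma), the preadipocyte factor Dlk1 and beta-actin (Actb), with mean FPKM of 769 and more. Of these 15, Eef2 alone was listed in WT cytoplasm, with 2 and 2 reads.

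The genes with and without circRNAs in this class were alike in mRNA level and unlike in structure. The median FPKM was 87.5 without and 84.4 with circRNAs. The median span was 10.7 kb (interquartile range 5.42 to 18.5) without and 27.1 kb (14.6 to 47.0) with them. Genes without had a median of 7 merged exons and those with had 13, and the median intron was 649 and 1052 bp. The first intron was 1323 and 3827 bp. The 202 hosts of the class had a median of 6.5 circle reads. Of the 489 without, 45 were listed in the WT cytoplasmic libraries and 47 in any of the other 10 circRNA lists. With the KO mRNA libraries in place of the WT ones, 537 of 740 genes were without.

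Annotated span alone did not make a gene a host. It ran between the outermost exons of all annotated transcripts of a gene, and the span of the transcripts expressed here was not determined. Of 349 genes that spanned at least 100 kb at a mean FPKM of 10 or more, with at least 4 merged exons, 50 had no listed circRNA in WT whole cells. The highest 3 of these, named after their values were seen, were Sgk1, a serum- and glucocorticoid-regulated kinase, at FPKM 67.0, 70.4 and 67.3 and 118 kb, Cald1, the actin-binding protein caldesmon, at 57.5, 58.0 and 55.8 and 177 kb, and Bri3 at 54.7, 59.3 and 54.0 and 202 kb. Cald1 and Bri3 were listed in neither WT cytoplasm nor KO whole cells, and Sgk1 had 2 and 1 reads in WT cytoplasm. In all, 7 of the 50 were listed in WT cytoplasm.

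Some abundant genes did make circles, at very low output per mRNA. Rpl8, a protein of the large ribosomal subunit, had 6 and 7 circle reads at FPKM 1425, 1519 and 1519, or 0.0776 circle RPM per FPKM, 0.00490 times the median host. Among hosts of FPKM 10 or more with reads in both libraries, the next lowest were Cnbp, a zinc-finger nucleic acid-binding protein, Clic1, a chloride intracellular channel protein, Ppp1ca, a catalytic subunit of protein phosphatase 1, and Slc25a3, the mitochondrial phosphate carrier. Each of the last 4 had 1 read in each library, at mean FPKM 118 to 194. With single reads their order cannot be resolved.

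Gene groups differed widely in the share of expressed members that were hosts, and the share of all expressed genes was 29.1%. Cytosolic ribosomal proteins were nearly free of circRNAs: 3 of 82 were hosts (3.66%), namely Rpl8, Rpl10a (4 and 8 reads) and Rpl4 (0 and 1), at a median FPKM of 379 over the list. Of the nuclear-encoded subunits of the respiratory chain 6 of 72 were hosts (8.33%), led by Atp5b with 10 and 9 reads. Glycolysis had 2 of 15, with Ldha at 12 and 9 reads and none for Pkm or Pgk1 at FPKM 406 and 240. Histone genes had 1 of 15, the histone variant gene H2afy. All of these lists are made of short genes, with a median span of 1.83 to 16.6 kb.

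Regulatory genes lay at the other side. Of expressed ubiquitin ligases and proteases 52 of 72 were hosts (72.2%), among them the deubiquitinases Usp34 (50 and 71 reads) and Usp9x (54 and 58). Of chromatin regulators 54 of 85 were hosts (63.5%), with Nsd2 and the H3 lysine 36 methyltransferase Ash1l (114 and 102 reads) at the top and none for the remodeller Chd4 or the bromodomain protein Brd2 at FPKM 62.8 and 62.2. Of nucleocytoplasmic transport factors 30 of 48 were hosts (62.5%), led by the import receptors Ipo7 (68 and 72 reads) and Tnpo3 (57 and 41), whereas Ran, the GTPase of that pathway, had no circle at FPKM 284. Splicing and circularisation factors had 13 of 27, including Mbnl2, a muscleblind-like protein (64 and 31 reads), and the RNA helicase Dhx9 (32 and 26). These 4 lists had median spans of 18.2 to 66.7 kb. Of all expressed genes of at least 4 merged exons, 20.6% at 10 to 30 kb and 55.8% at 30 to 100 kb were hosts. The lists were not compared with genes of equal span, so that gene group and length cannot be told apart.

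Matrix genes, the main product of fibroblasts, did not fall into one class. Extracellular matrix glycoproteins were hosts in 14 of 22 cases (63.6%), and Ltbp1, which holds latent TGF-beta in the matrix, had 82 and 64 reads from 18 circRNAs. Collagens were hosts in 5 of 23 cases (21.7%), although their median span was 114 kb. Col5a1 had 25 and 18 reads and Col4a5 13 and 12, whereas Col1a1 and Col1a2, the chains of type I collagen with 52 and 48 merged exons, had none at FPKM 510 and 349. Of expressed genes of at least 4 merged exons, 55.8% at 30 to 100 kb and 80.0% at 100 kb and over were hosts. The collagens were not split by span, so that their share is not compared at equal length. The actin cytoskeleton had 13 of 41 hosts, with Myh10 at 27 and 26 reads and none for Actb or Vim. Translation factors had 19 of 62, the proteasome 8 of 36 and chaperones 5 of 25, where Canx, a chaperone of the endoplasmic reticulum, had 75 and 69 reads at FPKM 107.7.

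**Figure D4:**
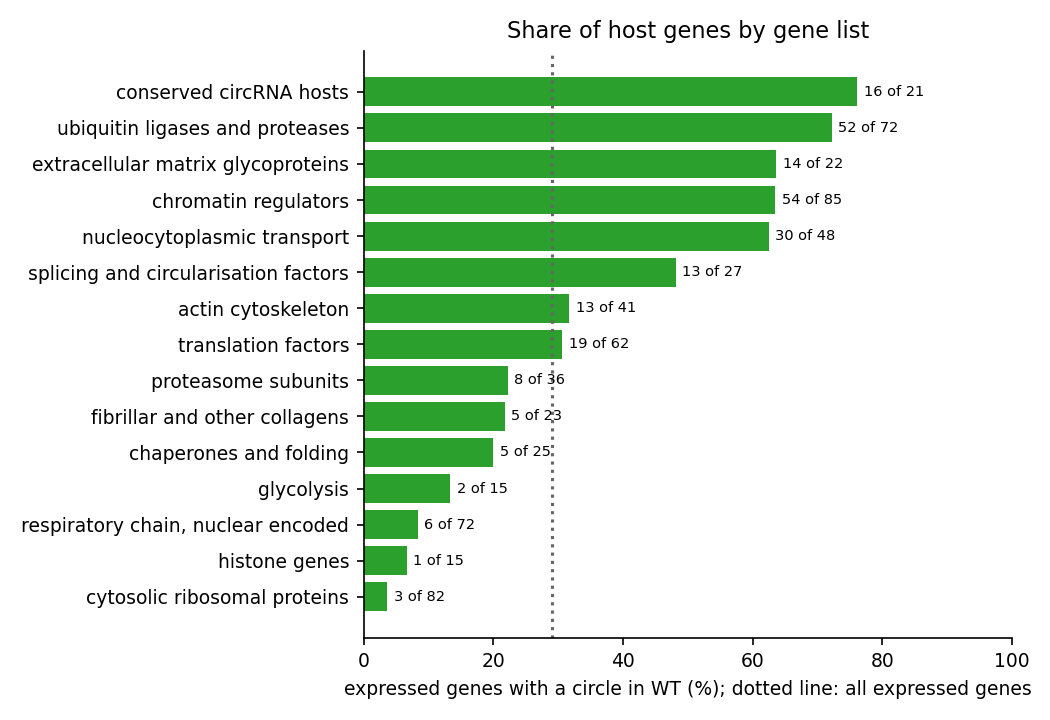
Bars give the percentage of expressed genes (mean WT FPKM 1 or more) of each list that hosted a circRNA in WT whole-cell RNA, with hosts of expressed members beside the bar. The dotted line is the share of all expressed genes, 29.1%. Ribosomal proteins lie lowest at 3 of 82 and the list of conserved circRNA hosts highest at 16 of 21.

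Genes known to make conserved circRNAs were mostly hosts here, 16 of the 21 expressed. The list had a median span of 94.9 kb. Among all expressed genes of at least 4 merged exons, 55.8% at 30 to 100 kb and 80.0% at 100 kb and over were hosts. The share of the list is thus not set apart from that of long genes. Crim1, a transmembrane protein with cysteine-rich repeats, had 171 and 147 reads at a mean FPKM of 15.8. Of the 5 that were not, Smarca5, Foxo3, Zkscan1 and Sirt1 were at FPKM 23.4, 16.5, 7.02 and 2.17. Smarca5 is the chromatin remodeller whose circRNA is among the most often described. Of the genes the study names, Specc1 had 52 and 37 reads at a mean FPKM of 3.69 and Wwc1 8 and 8 at 4.2. Adarb1, which encodes an RNA-editing enzyme, had no listed circRNA at FPKM 1.64.

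Nfix, a transcription factor of the nuclear factor I family, had only 10 and 13 circle reads in WT whole cells at FPKM 57.8, 54.2 and 55.4, a ratio of 3.67 or 0.232 times the median. The same gene had 1849 and 1889 reads in WT cytoplasm and 697 and 686 in KO whole cells. Its main circRNA had 2 and 0 reads in the WT whole-cell libraries, 1837 and 1871 in WT cytoplasm and 681 and 677 in KO whole cells. The WT whole-cell and WT cytoplasmic values are far apart for the same genotype, and the reason was not tested.

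To ask whether circle output moved with host mRNA when both were measured in the other genotype, KO was compared with WT in edgeR by its quasi-likelihood test, and p-values were adjusted by the method of Benjamini and Hochberg. Xpo4, the edited gene, had FPKM 3.08, 2.93 and 2.89 in WT and 3.72, 2.62 and 3.77 in KO (log2 difference 0.18, SE 0.11, adjusted p = 0.193). The groups overlap, so that exon reads over the whole gene do not tell the genotypes apart. Without KO replicate 2 the difference was 0.34 (adjusted p = 0.000252). Xpo4 was a host in both, with 10 and 9 circle reads against 12 and 15 in the KO libraries. In mRNA, 7151 of 14688 genes (48.7%) were called, 25.1% higher and 23.6% lower in KO. In circle reads per host, 444 of 3531 (12.6%) were called, 6.57% higher and 6.0% lower. That count fell to 3 with DESeq2 and to 0 when either KO library was left out.

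Changes of mRNA and of circle reads had almost no rank correlation over all hosts tested. Across the 3486 WT hosts tested in both, rho between the log2 differences was -0.0470, and it was -0.0532 over the 707 hosts with at least 20 reads on average. Over the 39 hosts with mRNA called at least 4-fold changed, rho was 0.234. The 2 KO whole-cell libraries behind the circle differences were unlike for some abundant hosts. Tulp4 had 529 and 202 reads in them and Rasa2 460 and 185, while Cacna1c had 424 and 434 and Bnc2 72 and 73. How far this spread bears on rho was not tested. All directions of mRNA follow the sample titles. If the genotypes named inside the mRNA tables were the right ones, every mRNA difference would change its sign, and rho over all hosts would be 0.0470. The mRNA of 30 hosts was called at least 4-fold higher in KO, with a median log2 difference of 3.46. Their circle reads had a median log2 difference of 0.49, with 20 above and 10 below 0, and 4 were called higher and 1 lower. Over all 3486 hosts tested in both, the median was -0.04, with 1684 above and 1802 below 0. Of these, 216 were called higher and 211 lower. Of 9 hosts with mRNA called at least 4-fold lower, 5 had circle reads above and 4 below 0, and none was called.

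Of hosts with at least 20 mean circle reads in WT, those with the largest called mRNA change are given by library. They were chosen by mRNA change and by WT circle reads, so that the distance of their mRNA groups follows from the choice. By the titles, Rims2 mRNA rose from FPKM 0.0774, 0.104 and 0.0611 in WT to 0.794, 0.816 and 0.8 in KO (log2 difference 3.32, SE 0.21, adjusted p = 2.84e-08), whereas its circle reads were 27 and 33 in WT cells and 19 and 21 in the knockout (log2 difference -0.54, adjusted p = 0.235). Brinp1, a neural cell cycle inhibitor, went from 0.285, 0.282 and 0.323 to 2.53, 2.03 and 2.31 (log2 difference 2.94, adjusted p = 4.55e-09), with 29 and 18 circle reads in WT libraries against 37 and 39 (adjusted p = 0.128). Neither gene was called in circle reads.

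Adgrl3 mRNA was 0.844, 0.534 and 0.880 in KO (log2 difference 1.91, adjusted p = 2.12e-06), and its circle reads were 28 and 41 (adjusted p = 0.113). Gas2, an actin-binding growth-arrest gene, went from FPKM 6.62, 7.64 and 7.71 to 24.8, 25.8 and 25.04 (log2 difference 1.78, adjusted p = 2.99e-10), and its circle reads were 217 and 221 against 244 and 82 (adjusted p = 0.586). The KO replicates of Gas2 lay on either side of WT. Sema5a mRNA was 2.26, 1.65 and 2.21 in KO (log2 difference 1.74, adjusted p = 7.79e-08), and its 26 and 25 circle reads in WT stood against 16 and 23 (adjusted p = 0.487). None of the 5 genes had a call in circle reads. In simulated data the precision was unequal, with 2-fold changes recovered in 99% of mRNAs but in 9% of circle sums (4-fold: 100% and 82%). The spread of the simulated libraries was set and not estimated from these data. The recovery in the measured libraries may therefore differ.

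**Figure D5:**
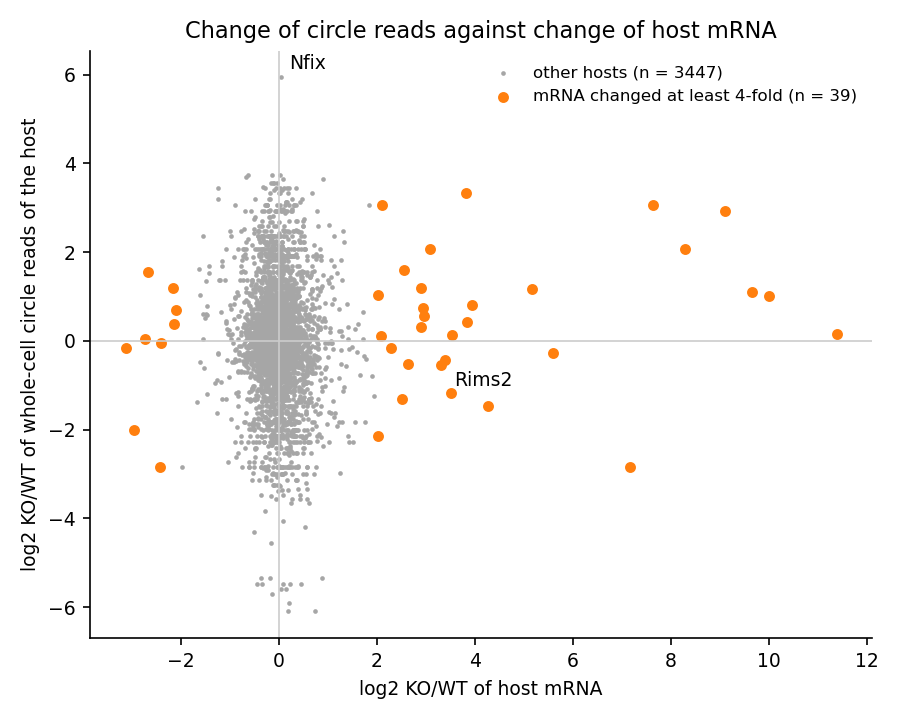
Each point is 1 of 3486 hosts, with the log2 KO/WT difference of its mRNA on the x axis and of its whole-cell circle reads on the y axis (edgeR). Orange marks 39 hosts whose mRNA was called with a change of at least 4-fold. They spread to both sides of 0 on the y axis, and Nfix lies at the top with no mRNA change called.

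Among the 12 hosts with many circle reads for little mRNA, none was called in circle reads, with log2 differences from -0.78 to 0.36. In mRNA 8 of the 11 tested were called, 7 higher and 1 lower in KO, but these genes were chosen for low WT mRNA, so nothing is read from that direction. Of the 10 hosts with most reads, 4 were called in mRNA (1 higher, 3 lower) and 1 in circle reads. Over all WT hosts tested, 55.5% were called in mRNA and 12.3% in circle reads, so that the counts of the 10 are near the background. The call in circle reads was Bnc2, with 243 and 212 reads against 72 and 73 (log2 difference -1.60, SE 0.34, adjusted p = 0.0248) at an mRNA log2 difference of -0.05. Without any 1 of the 4 libraries the log2 difference of Bnc2 stayed at -1.75 to -1.46 while its adjusted p was 0.115 to 0.216, and with DESeq2 it was -1.58 (adjusted p = 0.150). Nfix circle reads had a log2 difference of 5.94 (SE 0.48, adjusted p = 0.000162) at an mRNA log2 difference of 0.04 (adjusted p = 0.649), but this rests on the low WT whole-cell reads, and WT cytoplasm had 114 times their circle RPM. Without KO replicate 1 or 2 the circle value of Nfix was 6.06 or 6.02 with an adjusted p of 0.0706 or 0.0737. With the KO mRNA libraries taken as WT, 10 hosts in place of 12 had many reads for little mRNA.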

How the data were processed

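CircRNA-seq of WT and KO NIH/3T3 cells (2 libraries per genotype and fraction) and mRNA-seq (3 per genotype) were analysed. For circRNAs, the authors deposited counts of junction reads per circRNA from find_circ on mm10, with filters not given in the sources used here. For mRNA, the authors deposited counts of reads per gene from featureCounts 2.0.0 after HISAT2, paired, unstranded and without multi-overlap, per the file headers. Of 55401 gene IDs, 55141 matched a symbol, and 0 columns of other samples were left aside.

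Here, junction reads of circRNAs with 1 host were summed per gene and FPKM was computed from the counts and the gene lengths of the files. Exons, flanks and junctions were read from GRCm38 with GENCODE annotation of that build. KO and WT were compared with edgeR 4.0.16 (quasi-likelihood test, TMM, Benjamini-Hochberg, threshold 0.05) on genes passing filterByExpr or hosts with at least 10 circle reads in all, and the fit was tested on simulated data. Relations across genes are descriptions with no test. The text names the 10 hosts with most reads, the hosts with many reads for little mRNA, the 15 highest expressed genes without a circle, the 5 lowest ratios, genes the study names, Xpo4, leading members of each list, and the 5 hosts with the largest called mRNA change. 1 list and some single genes are not reported here. The members, lists and rules were chosen with earlier results of these data known. Alternatives were TPM, other thresholds, circRNAs of several hosts, other libraries, DESeq2 1.42.0, RLE scaling, no filter, a replicate block and leaving out each library. Totals were 2189 to 81941 junction reads per circRNA library, and counts of 1 to 3 reads say little.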

Additional observations from a re-analysis of the deposited data

Results flagged for a closer look

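In all, 5 values outside the WT whole-cell comparison stood out. Of the 111 hosts with a mean of at least 100 reads in WT whole cells or WT cytoplasm, 2 had at least 8-fold more circle RPM in WT cytoplasm. Nfix had 114 times more (10 and 13 reads in whole cells, 1849 and 1889 in cytoplasm) and Pvt1, a long non-coding RNA gene, had 12.8 times more (49 and 50 reads, 897 and 902). The ratio of the third highest host was 5.51 and the median was 1.06. In KO whole cells Pvt1 had 615 and 622 reads. Another 3 highly expressed genes without a circle in WT whole cells had at least 10 reads in both WT cytoplasmic libraries, with means of 17.5 for Cfdp1 (14 and 21), 14 for Raly (15 and 13) and 12 for Eif4b (13 and 11). No cause was tested.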

How the results depend on the processing

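Spearman's correlation between circle reads and FPKM stayed under 0.05 in size in all alternatives run, none of which matched genes by length. It was 0.0315 with KO mRNA, 0.0241 with circRNAs of at least 5 reads, 0.0259 with the WT cytoplasmic libraries, 0.0335 over genes with under 10% exon overlap (added after seeing the data), -0.0196 over hosts of FPKM 1 or more, and 0.0337 to 0.0432 without 1 library. The 12 hosts with many reads for little mRNA became 6 at FPKM under 0.5, 42 at under 2, 28 at 10 reads, 3 at 50 reads and 3 with TPM. Within a library TPM is FPKM times a constant, so that the same number in TPM is a lower cutoff in FPKM. The TPM values here and below thus show a moved cutoff. The 489 highly expressed genes without a circle became 1405 at FPKM 20, 194 at FPKM 100 and 1819 with TPM, at 66.1%, 72.7% and 64.6% of their classes. The 29.1% of expressed genes that were hosts became 24.1% with TPM, 33.3% at FPKM 5, 29.3% with circRNAs of several hosts, 29.7% with KO mRNA, 24.3% with circRNAs of at least 5 reads, 27.9% in cytoplasm, 37.6% for 4 or more exons (added after seeing the data), and 28.2% to 29.1% without 1 library.

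The mRNA count of 7151 stayed within 1.5 times under all alternatives run. The 444 circle calls became 3 with DESeq2 (270 at unadjusted p under 0.05), 3 with no filter, 0 with no scaling (996 unadjusted), and 0 to 226 without 1 library: 226 without WT replicate 1, 173 without WT replicate 2 and 0 without KO replicate 1 or 2 (674 and 534 unadjusted). With the replicate block it was 694 for circle reads and 7124 for mRNA, but same-numbered libraries did not deviate together (correlations of -0.0749 to 0.0483), so they share only a number. Without 1 library, uncalled log2 differences took both signs: -0.011 to 0.093 for Nfix mRNA, -0.56 to 0.026 for Sema5a circle reads and -1.24 to 0.27 for Gas2 circle reads. The calls of Nfix and Bnc2 circle reads were lost under some alternatives. The cause of these shifts was not tested. In simulated data, whose spread was set and not estimated, 2-fold changes of circle sums were mostly missed.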
